A study of Mus musculus with 2 samples.

Results

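Cycling fibroblasts were examined in the ear skin of mice with IgE-mediated chronic allergic inflammation (IgE-CAI), in which IgE against a hapten is injected and the hapten is then given into the skin. BALB/c wild-type (WT) and Ccr2-/- mice, which lack the chemokine receptor that brings monocytes out of the blood, received 300 µg of anti-TNP IgE and 10 µg of TNP-conjugated ovalbumin (TNP-OVA). Skin cells were taken on days 3 and 5 after challenge, and each genotype and day was stained with its own hashtag antibody, so that there were 4 pools (WT of day 3 and of day 5, then Ccr2-/- of day 3 and of day 5), and values listed for the 4 pools keep this order. All mice carried the same sensitization and challenge. The labels do not give the age of the mice or the number of mice per pool, and each genotype and day had 1 pool without a replicate.

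The cells were selected on measured transcripts and were not clustered. Of 8953 barcodes, 8359 had at most 20% mitochondrial reads and at least 200 genes. Of these, 2191 were fibroblasts by at least 50 counts per 1000000 reads (CPM) of Pdgfra, at least 5000 CPM of Col1a1 and Col3a1 together, under 50 CPM of the leukocyte gene Ptprc and under 100 CPM of the cartilage genes Chad and Cilp2. The gate for cycling was a sum of at least 150 CPM over 6 genes of cell division, namely Plk1, Cdk1, Ccnb1, Prc1, Ube2c and Top2a. It left 439 cycling fibroblasts, 4.90% of all barcodes and 20.04% of the fibroblasts, and 1752 other fibroblasts. By hashtag, the WT pools held 45 (day 3) and 28 (day 5) and the Ccr2-/- pools 155 on each day. The remaining 56 were not assigned to a pool, 34 of them with 10 or more hashtag reads, and entered no comparison.

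Fibroblasts of the dermis are mostly at rest and enter the cell cycle when the skin is wounded or inflamed. A cell that divides first turns on the replication genes of S phase, under E2F transcription factors, and later the genes of G2 and mitosis, many of which carry a short promoter element called the cell cycle genes homology region (CHR) near a CCAAT box. Mitosis is driven by cyclin B (Ccnb1) with its kinase Cdk1 and by the kinase Plk1, Top2a untangles the copied DNA, Prc1 bundles the microtubules between the separating chromosomes, and Ube2c helps the anaphase-promoting complex to mark cyclins for destruction.

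The promoters of the gate genes are shown because these genes chose the cells. RefSeq promoter windows (GRCm38.p6), from 250 bases before to 50 bases after the start of transcription, were searched on both strands for the CHR (TTTGAA or TTCGAA), for CCAAT, and for an E2F motif (TTTNNCGC with C or G at both N). Each line below gives 30 bases on the gene's strand, 5′ to 3′, with the CHR nearest to the start in capitals, or for Ccnb1, whose window held no CHR, the CCAAT box. TTCAAA is the CHR read on the other strand. On chromosome 7 the Plk1 stretch is chr7:122159453-122159482 (plus strand) and the Prc1 stretch chr7:80294434-80294463 (plus). The others are chr10:69352910-69352939 (minus) for Cdk1, chr13:100786537-100786566 (minus) for Ccnb1, chr2:164769888-164769917 (plus) for Ube2c and chr11:99024195-99024224 (minus) for Top2a.
Plk1: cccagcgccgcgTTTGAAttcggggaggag
Cdk1: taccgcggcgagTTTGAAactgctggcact
Ccnb1: tgccacgaactggCCAATgaggagcgagcg
Prc1: cctctggctcggTTTGAAttccgcggggtc
Ube2c: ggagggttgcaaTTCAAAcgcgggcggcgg
Top2a: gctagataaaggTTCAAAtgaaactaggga

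The CHR was found in 5 of the 6 gate genes and in 31 of 41 genes of a list of further G2 and mitosis genes with a promoter window (75.6%), against 6 of 36 genes of an S phase list (16.7%) and 21.7% of 27025 genes with a window. The E2F letters were found in 1 of the 6 gate genes (16.7%), 0 of 41 G2 and mitosis genes, 15 of 36 S phase genes (41.7%) and 2.61% of all genes. CCAAT was found in all 6 gate genes, in 70.7% of the G2 and mitosis genes, in 66.7% of the S phase genes and in 41.1% of all genes. A match describes letters in a window and is not a measured binding site.

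The summed reads of the cycling fibroblasts came to 7569987 in WT day 3, 4480327 in WT day 5, 31268529 in Ccr2-/- day 3 and 33821465 in Ccr2-/- day 5. A median cycling fibroblast had 146535, 132680, 185242 and 198614 reads in these pools, and a median other fibroblast 68741, 74240, 112724 and 109151. Cycling fibroblasts thus had 1.64 to 2.13 times the reads and 1.34 to 1.56 times the genes of other fibroblasts of their pool. Depth also differed between genotypes, and its part in the results was not tested beyond the thinning given below. Over all barcodes within the limits Ccr2, the deleted gene, was at 347 and 341 CPM in the WT pools and at 13.3 and 11.9 CPM in the Ccr2-/- pools at days 3 and 5.

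Fibroblast genes outside the selection were also read in the cycling cells. The selection required collagen reads, so this describes the cells and is no test of their label. The collagen gene Col1a2 and the proteoglycan gene Dcn, which the selection did not use, had a read in every cycling fibroblast of every pool. Col1a2 was at 8118, 10295, 8650 and 8280 CPM in cycling fibroblasts of the 4 pools and at 13236 to 18626 CPM in the other fibroblasts. Dcn was at 10266 to 13449 CPM against 17306 to 24306 CPM.

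Markers of other cell types were low with a few exceptions. In cycling fibroblasts the summed markers of endothelial cells were at 3.29 to 8.04 CPM, of lymphocytes at 3.17 to 12.3 CPM, of keratinocytes at 21.2 to 60.9 CPM, of macrophages at 31.8 to 92.2 CPM and of neutrophils at 60.9 to 109 CPM. Summed mast cell and basophil markers were at 15.0 to 90.5 CPM in 3 pools and at 1383 CPM in WT day 5, where 1 cell held 98.6% of these reads. In WT day 3 a single cell held 99.3% of the reads of the basophil protease Mcpt8. The adipocyte marker Lpl was at 226 to 396 CPM in cycling and at 441 to 920 CPM in other fibroblasts. Summed neutrophil markers were at 73.2, 60.9, 102 and 109.2 CPM in cycling and at 50.4, 49.1, 48.7 and 109.0 CPM in other fibroblasts. Lymphocyte markers were also lower in other fibroblasts in each pool (1.88 to 5.54 CPM), and endothelial markers higher (6.07 to 19.4 CPM). Macrophage, keratinocyte and mast cell and basophil markers went either way by pool.

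Within the gate the cells ranged widely. Their gate sum was 153 CPM at the lowest, 824 CPM at the median and 6032 CPM at the highest. All 6 gate genes had a read in 177 cells (40.3%), and only 1 of them in 25 cells (5.69%). The 5 cells just inside the threshold had 153 to 159 CPM and the 5 just below it 146 to 148 CPM. Of the other fibroblasts 53.5% had no gate read and 6.05% had 75 CPM or more.

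Of the gate genes, given as the description of the selection, Top2a and Prc1 varied least between the 4 pools. Top2a was at 298, 284, 288 and 276 CPM in the pools, in the order WT day 3, day 5, then Ccr2-/- day 3, day 5. Cdk1 was at 228, 238, 239 and 293 CPM. Ube2c was at 239, 219, 198 and 289 CPM, and Prc1 at 198, 207, 198 and 220 CPM. The lowest levels were those of Ccnb1 (81.1 to 117 CPM) and Plk1 (43.7 to 84.8 CPM). In the other fibroblasts none of the 6 exceeded 7.64 CPM in any pool.

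The share of fibroblasts in the gate was then compared between genotypes. It was 13.3% (45 of 338 cells, exact 95% interval 9.88 to 17.4) in WT day 3 and 10.4% (28 of 269, 7.03 to 14.7) in WT day 5. It was 21.9% (155 of 708, 18.9 to 25.1) in Ccr2-/- day 3 and 26.2% (155 of 591, 22.7 to 30.0) in Ccr2-/- day 5. On day 3 the Ccr2-/- pool exceeded its WT counterpart 1.64-fold and on day 5 2.52-fold, and the intervals of the genotypes did not overlap on either day. The means over both days were 11.9% ± 2.05 in WT and 24.1% ± 3.06 in Ccr2-/- (SD, n = 2 pools), a difference of 12.2 percentage points. The 2 pools of a genotype are its day 3 and day 5, so the SD is a spread between days and not between replicates. Permuting the pools exactly (two-sided), without regard to day, gave p = 0.33, the smallest value that its 6 splits allow. The design therefore cannot reach significance. The intervals cover counting error only, and pool and group cannot be told apart within a day.

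**Figure D1:**
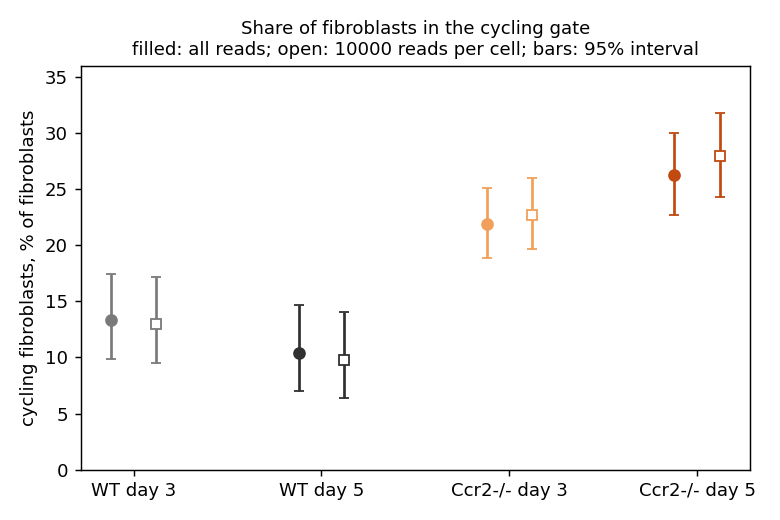
Share of fibroblasts in the cycling gate (vertical axis, %) in the 4 pools, with exact 95% intervals, from all reads (filled) and after thinning each cell to 10000 reads (open). Both Ccr2-/- pools lie above both WT pools in either form.

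The share was also compared at a common depth and with tighter limits on other cell types. After each fibroblast was thinned to 10000 reads WT had 13.0% on day 3 and 9.77% on day 5, where Ccr2-/- had 22.7% and 27.9%. Among fibroblasts of 100000 to 200000 reads, however, the day 3 shares were closer, at 21.7% (interval 13.4 to 32.1) in WT and 25.5% (20.1 to 31.5) in Ccr2-/-, while the day 5 shares were 13.4% and 25.5%. With no Ptprc read and under 300 CPM of leukocyte markers allowed, WT had 11.98% and 6.72% and Ccr2-/- had 14.1% and 21.2% at days 3 and 5, so that day 3 was closer again. A limit of 500 CPM on the markers of all other cell types, Lpl among them, turned the day 3 order, with 21.3% in WT (interval 13.4 to 31.3) and 14.8% in Ccr2-/- (9.49 to 21.5), and kept that of day 5 (13.5% and 31.1%). The range of reads and both marker limits were chosen after the data were seen.

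Outside the gate genes, the whole division program was higher in cycling fibroblasts, which describes the selection and is no test. Among 11020 genes of at least 5 CPM on average, 344 (3.12%) were at least 2-fold higher in cycling than in other fibroblasts in 4 of 4 pools and 94 (0.853%) at least 2-fold lower. Of 48 such G2 and mitosis genes 47 were at least 2-fold higher in 4 of 4 pools, with a median log2 ratio of 3.92. The highest were Nusap1, a spindle protein (5.39), Pbk (5.01) and Ckap2l (4.79), and the lowest were Hjurp (1.05) and Cdc25c (2.47). Of the 45 S phase genes 43 were at least 2-fold higher, with a median of 2.28. Tk1, which makes thymidine monophosphate for DNA, led them (4.55), before Rrm2 (4.0) and Rad51ap1 (3.8), and Orc6 (0.87) and Slbp (1.10) were the lowest. The proliferation marker Mki67 was at 242, 210, 178 and 212 CPM in the cycling fibroblasts of the 4 pools in that order, against 7.02 to 14.5 CPM in other fibroblasts.

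**Figure D2:**
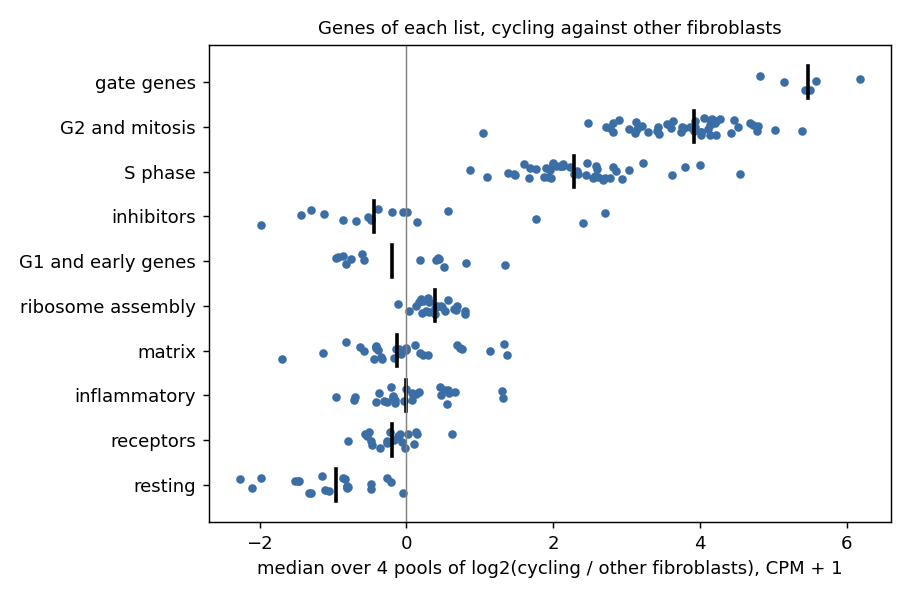
Each point is a gene of at least 5 CPM on average, placed by its median over 4 pools of the log2 ratio of cycling to other fibroblasts (horizontal axis, after adding 1 CPM), and bars are medians of each list. G2 and mitosis genes (median 3.92) and S phase genes (2.28) lie to the right, and genes of resting skin fibroblasts (-0.96) to the left.

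Outside all lists the 12 genes of highest ratio were Hist1h2ap, Hist1h2ao, H2ac11, H2ac6, H2ac4, H2ac12, H2ac7, H2ac13, Depdc1a, H2ac14, Nek2 and Mxd3, with median log2 ratios of 4.57 to 6.52. The 9 histone H2A genes among them are near-identical copies that can share reads, so that their separate values are uncertain. The kinase gene Nek2 was at 38.4 to 68.5 CPM in cycling fibroblasts against 0.638 to 1.54 CPM. The 12 of lowest ratio were Galnt15, Ndufa4l2, Hmcn2, Tnmd, Ntrk2, Gpnmb, Opcml, Pcsk6, Cilp, Kdm5b, Ppl and Pltp, with median log2 ratios of -2.79 to -1.83. Tnmd, a gene known from tendon, was at 19.2 to 53.3 CPM against 87.9 to 229 CPM.

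A list of cell cycle inhibitors and p53 targets was split. Of 18 such genes 11 were lower and 4 higher in 4 of 4 pools, and over all 11020 genes 21% were lower and 27.9% higher by this count, which applies to the counts of the lists that follow. The brakes Cdkn1c (median log2 ratio -1.44) and Cdkn1a (-0.87) were lower, as was Trp53inp1 (-1.98). Rbl1 (2.70), Cdkn2c (2.40) and Cdkn2d (1.77) were higher, and the first of these is a relative of the retinoblastoma protein. Cdkn1a was at 131, 108, 98.7 and 81.9 CPM in cycling fibroblasts of the 4 pools, and at 126 to 296 CPM in other fibroblasts. Of 14 G1 cyclins, kinases and immediate early genes 6 were higher and 7 lower in 4 of 4 pools, with Cdk2 (1.34), Cdk4 (0.82) and Cdk6 (0.51) at the top and Egr1 (-0.96) and Junb (-0.94) at the bottom. Of 23 ribosome assembly genes 17 were higher in 4 of 4 pools and 0 lower, though 0 by 2-fold in all pools. Nop56 (0.80), Npm1 (0.79) and Rrp9 (0.69) led them, and Polr1b (0.04) and Nle1 (-0.11) were the lowest.

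Genes of resting skin fibroblasts were lower in the cycling cells. Of 22 genes 21 were lower in 4 of 4 pools and 7 at least 2-fold, with a median log2 ratio of -0.96. Scara5, a scavenger receptor of resting fibroblasts, had the lowest ratio (-2.27), followed by Mfap4 (-2.11), while Ly6a (-0.05), Fbn1 (-0.21) and Mfap5 (-0.26) had the highest. Scara5 was at 25.0, 64.1, 7.68 and 16.4 CPM in the cycling fibroblasts of the 4 pools in that order, and at 139, 247, 43.6 and 78.0 CPM in the other fibroblasts, so that within each pool the cycling cells were lower. Of 28 matrix and contractile genes 6 were higher and 10 lower in 4 of 4 pools, from Spp1 (1.37), Acta2 (1.33) and Ltbp2 (1.14) to Thbs2 (-1.13) and Aspn (-1.70), against 27.9% higher and 21% lower over all genes. Single cells held 47.1% to 89.8% of the Spp1 reads of a pool. By the same count, of 27 inflammatory genes 3 were higher and 7 lower, the latter near the share of all genes, from Lif (1.31), Cxcl5 (1.30) and Il11 (0.66) to Tslp (-0.71) and C3 (-0.96). Of 20 receptors 2 were higher and 9 lower, from Il4ra (0.62), Osmr (0.14) and Tnfrsf12a (0.14) to Ghr (-0.57) and Fgfr2 (-0.80).

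Cycling cells were unevenly spread over fibroblasts of different Cxcl5 level. CXCL5 is a chemokine that attracts neutrophils. Of fibroblasts with at least 1000 CPM of Cxcl5, 45.2% (19 of 42, interval 29.8 to 61.3) were cycling in WT day 3, 31.8% (7 of 22, 13.9 to 54.9) in WT day 5, 42.4% (104 of 245, 36.2 to 48.9) in Ccr2-/- day 3 and 43.2% (98 of 227, 36.6 to 49.9) in Ccr2-/- day 5. Below that level 8.78%, 8.50%, 11.02% and 15.7% were cycling in the same order. The cells with at least 1000 CPM made up 12.4% and 8.18% of WT fibroblasts and 34.6% and 38.4% of Ccr2-/- fibroblasts at days 3 and 5, and their median depth was 128600.5 to 197950 reads against 69655 to 98266. With at least 100 CPM of Scara5 the share cycling was 7.87%, 6.93%, 7.5% and 14.1% in the 4 pools, and below it 15.3%, 12.5%, 23.7% and 28.7%. The fibroblasts were split by 4 genes in all (Cxcl5, Scara5, Saa3 and Postn). For Scara5 the exact intervals of both sides overlapped in both WT pools, and for Cxcl5 they overlapped in none. At or over 2000 CPM of Saa3, an acute phase protein gene, 19.2%, 11.8%, 33.9% and 31.1% were cycling in the 4 pools and below it 12.8%, 10.3%, 19.3% and 24.4%, higher in each pool but with overlapping intervals in all pools except Ccr2-/- day 3. At or over 1000 CPM of Postn the share was 12.7% and 7.74% in WT and 23.7% and 27.1% in Ccr2-/- at days 3 and 5, and below it 14.4%, 14.9%, 15.1% and 24.7%, with overlapping intervals in all 4 pools. The 4 genes and their levels were chosen after the values were seen and the part of depth was not tested.

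**Figure D3:**
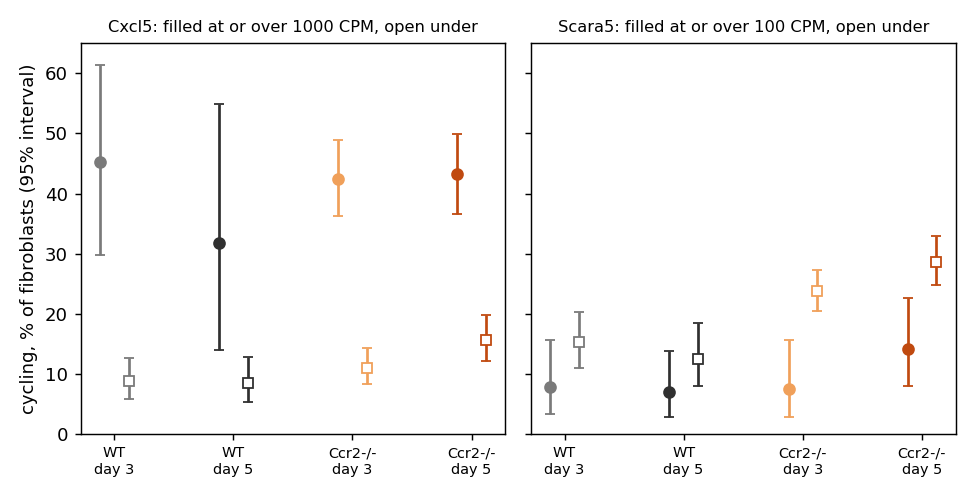
Share of fibroblasts in the cycling gate (vertical axis, %, exact 95% intervals) in the 4 pools, split by Cxcl5 at 1000 CPM (left) and Scara5 at 100 CPM (right), with cells at or over the level filled. In every pool the share was higher in cells of high Cxcl5 and lower in cells of high Scara5.

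The balance of S phase against G2 and mitosis was taken from the reads of both lists, which leave out the gate genes. The S phase list took 50.5% of these reads in WT day 3, 39.6% in WT day 5, 51.2% in Ccr2-/- day 3 and 43.3% in Ccr2-/- day 5. The genotypes differed by 2.23 percentage points on average (exact permutation p = 0.67, two-sided, 6 splits). Day 5 minus day 3 was -9.42 points on average, and the share was lower at day 5 in both genotypes. At 10000 reads per cell the shares were 45.0%, 41.1%, 49.7% and 43.8%, but among fibroblasts of 100000 to 200000 reads WT day 5 (46.2%) lay above WT day 3 (36.7%). Of 428 cycling fibroblasts with at least 20 reads of both lists together, 57 (13.3%) had over 80% and 72 (16.8%) under 20% S phase reads.

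**Figure D4:**
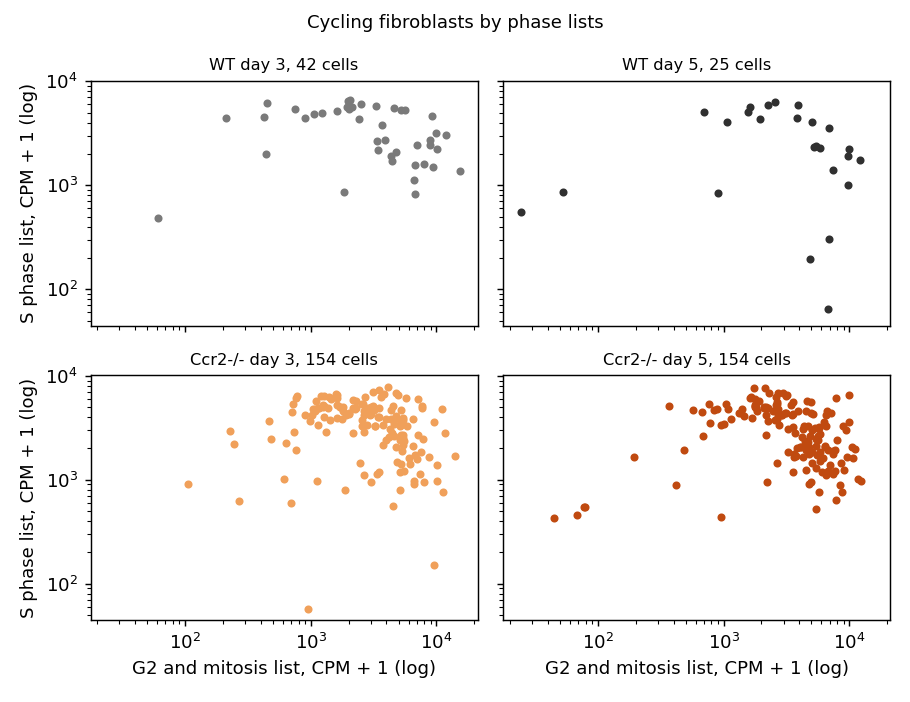
Each point is a cycling fibroblast with at least 20 reads of the S phase and the G2 and mitosis lists, by summed CPM of the G2 and mitosis list (horizontal) and the S phase list (vertical), both log axes after adding 1 CPM, in the 4 pools. Cells with over 80% S phase reads made up 21.4%, 12%, 16.2% and 10.4% of the points in the 4 pools. Those with under 20% made up 16.7%, 32%, 12.3% and 14.9%.

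The gate favours G2 and mitosis, and S phase genes were also found below it. Of the other fibroblasts, 13.99% (41 of 293, interval 10.2 to 18.5) in WT day 3, 6.22% (15 of 241, 3.53 to 10.1) in WT day 5, 17.5% (97 of 553, 14.5 to 21.0) in Ccr2-/- day 3 and 13.5% (59 of 436, 10.5 to 17.1) in Ccr2-/- day 5 had at least 1000 CPM of the S phase list. The summed list was at 649, 519, 894 and 740 CPM in the other fibroblasts, against 3833, 3139, 3687 and 3268 CPM in the cycling ones.

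Genes were then compared between genotypes within cycling fibroblasts, on reads summed per pool, with day as a covariate. The quasi-likelihood test of edgeR called 0 of 16086 genes (0%) at an adjusted p under 0.05, while 1023 genes had an unadjusted p under 0.05. The fit had 1 residual degree of freedom. DESeq2 called 111 of 16086 genes (0.69%), 53 of them higher in Ccr2-/-, and edgeR on cells thinned to 10000 reads called 107 of 9284 (1.15%), 34 of them higher. Both called 49 genes with the same sign, which were 44.1% of the former and 45.8% of the latter calls. Among the 49 were Il1b, from the list of neutrophil markers, and Hdc, a gene of mast cells and basophils. Whether reads of other cell types gave rise to such calls was not tested.

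The 5 genes of smallest p, none of them called by the edgeR test on all reads (adjusted p = 0.50), were Mmp19, Postn, Cxcl5, Myoc and Serpina3i. Cxcl5 was at 2000 and 943 CPM in WT and at 4570 and 2881 CPM in Ccr2-/- at days 3 and 5 (log2 fold change 1.43). Mmp19, a matrix metalloproteinase gene, was at 332 and 199 CPM in WT and at 966 and 689 CPM in Ccr2-/- (1.70). For both genes the Ccr2-/- pools lay above the WT pools. Postn, which encodes the matrix protein periostin, was at 2538 and 2000 CPM against 5033 and 3667 CPM (0.96), and 1 cell held 43.7% of its reads in WT day 5. Serpina3i, a serine protease inhibitor gene, was at 47.2 and 21.2 CPM against 168 and 98.1 CPM (2.05). Myoc was at 90.4 and 181 CPM in WT and at 23.4 and 36.9 CPM in Ccr2-/- (-2.09), and 1 cell held 17.7% to 58.4% of its reads in a pool. The alternative calls by DESeq2 and at thinned depth held for all 5.

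**Figure D5:**
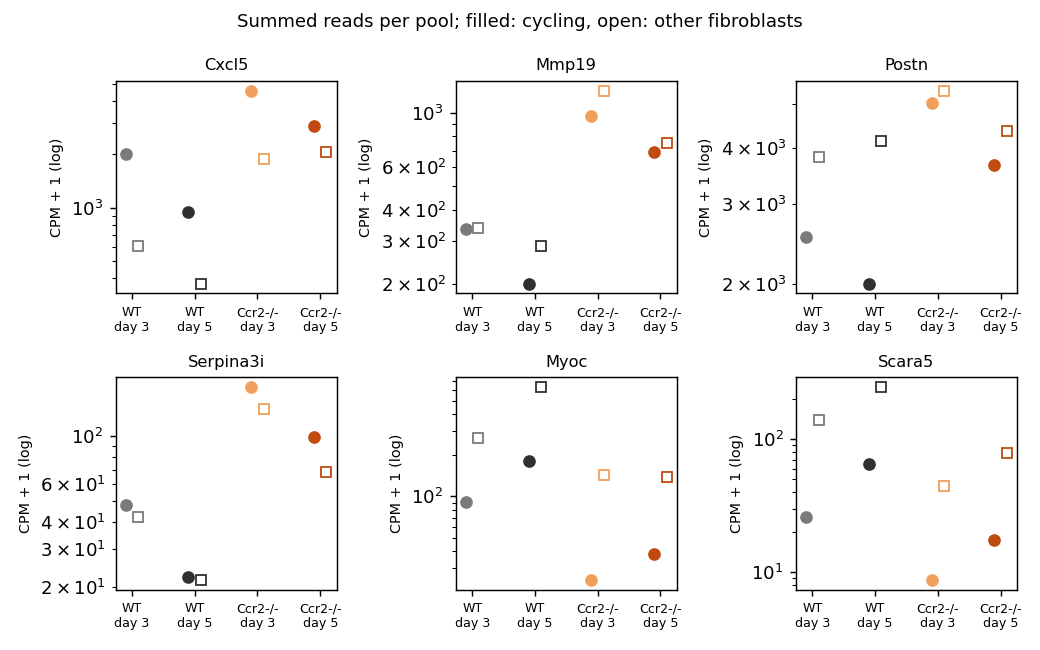
CPM plus 1 (log axes) of 6 genes in the 4 pools, from summed reads of cycling (filled) and other fibroblasts (open). Cxcl5, Mmp19, Postn and Serpina3i are higher and Myoc and Scara5 lower in both Ccr2-/- pools than in the WT pool of the same day, in both classes of fibroblast.

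The lists were chosen with earlier results of these data known, so their counts here and below describe them and are no test. By list, 7 of 24 inflammatory genes at thinned depth were called higher in Ccr2-/- and 1 lower. Over all genes tested there the shares were 0.366% higher and 0.786% lower. DESeq2 called 6 higher and 1 lower, against 0.329% and 0.361% over all genes. The edgeR test on all reads called 0 of 27 inflammatory genes, and their median log2 fold change was 0.36, against 0.03 over all genes tested. Besides Cxcl5, Ccl8 was at 907 and 348 CPM in WT against 1855 and 1554 CPM in Ccr2-/- at days 3 and 5, and Ccl11, which draws eosinophils, was at 1068 and 401 CPM against 2425 and 1532 CPM. Of 22 genes of resting fibroblasts 5 were called lower and 0 higher at thinned depth (all genes 0.786% and 0.366%), with a median of -0.31. Among 23 ribosome assembly genes 18 were higher in Ccr2-/- on both days and 0 lower on both, with a median of 0.43 and 0 called, and over all genes 26.6% were higher and 27.7% lower on both days. Of 14 G1 and immediate early genes tested there 4 were called lower at thinned depth (all genes 0.786%). DESeq2 called 1 of this list lower, and its median log2 fold change was 0.005. The list mixes G1 cyclins and their kinases with immediate early genes, and no G1 cyclin or such kinase was among the 49 genes called by both. The immediate early gene Egr1 was at 1769 and 1682 CPM in WT against 789 and 912 CPM in Ccr2-/-.

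The division genes outside the gate had small median differences between genotypes. The median log2 fold change was -0.14 for 50 G2 and mitosis genes and 0.05 for 45 S phase genes, against 0.03 over all genes tested. Of the G2 and mitosis genes 24 were lower in Ccr2-/- on both days and 8 higher, with 4 lower and 1 higher at an unadjusted p under 0.05, and of the S phase genes 11 were lower and 13 higher on both days, where all genes had 27.7% lower and 26.6% higher. Of the S phase genes 0 were called in the edgeR test, by DESeq2 or at thinned depth, and 1 G2 and mitosis gene was called lower at thinned depth.

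Between days, with genotype as a covariate, edgeR called 0 of 16086 genes (0%), with 593 at an unadjusted p under 0.05, DESeq2 called 66 (0.41%) and edgeR at thinned depth 24 of 9284 (0.259%). The 5 genes of smallest p, none of them called (adjusted p = 0.97), were C3, Defb1, Tcim, Angptl7 and Apod. Complement gene C3 was at 1145 CPM in WT day 3 and 384 CPM in WT day 5, and at 1163 CPM in Ccr2-/- day 3 and 257 CPM in Ccr2-/- day 5 (log2 fold change -1.92), so that both day 5 pools were lower. Apod was at 2272 and 1251 CPM in WT and at 1213 and 769 CPM in Ccr2-/- (-0.81). Defb1 in WT day 5 (55.8 CPM) came from 1 cell, and 1 cell held 71.4% of the Angptl7 reads there. Of the 45 S phase genes 30 were lower at day 5 in both genotypes and 3 higher, and of the 50 G2 and mitosis genes 34 were higher in both and 2 lower, with 0 called of either by edgeR on all reads. Over all genes 23.1% were lower and 30.6% higher at day 5 in both genotypes.

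Whether the genotype difference was of another size in cycling than in other fibroblasts was tested with the pool as a block. edgeR called 0 of 18863 genes (0%), with 1036 at an unadjusted p under 0.05, DESeq2 called 23 (0.122%) and edgeR at thinned depth called 2 of 12042 (0.0166%), which were Hp and Cxcl14. The 5 genes of smallest p, none of them called (adjusted p = 0.86), were Steap1, Lcn2, Pltp, Cep55 and Hdc. Steap1 was at 81.5, 78.1, 63.5 and 74.4 CPM in cycling fibroblasts of the 4 pools, and at 23.4, 20.9, 49.9 and 53.4 CPM in other fibroblasts. In the other fibroblasts both Ccr2-/- pools lay above both WT pools, and this difference was not tested. For Hdc, the histidine decarboxylase gene of mast cells and basophils, 1 cell held 95.8% of the reads in WT day 3 and 1 cell 90.6% in WT day 5.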

How the data were processed

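Ear skin cells of the 4 pools were profiled by TAS-Seq on BD Rhapsody as 1 cDNA and 1 hashtag library. The values deposited by the authors are read counts per gene or hashtag and barcode, with no molecular identifiers, so intervals cover counting error only. Per the submitters' processing notes, reads were trimmed with cutadapt and aligned with Bowtie2 to mouse RNA (GRCm38.p6). 9 further hashtag columns were not used. Hashtag reads of a barcode were divided by each hashtag's total, and the top one named the pool where it was at least 3 times the second. No doublet caller was run, and cells with several hashtags stayed unassigned.

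CPM of a pool is summed reads over summed totals of its cells, and log2 ratios add 1 CPM. Shares carry exact Clopper-Pearson 95% intervals. Summed reads were tested with edgeR 4.0.16 (glmQLFTest, TMM, filterByExpr, Benjamini-Hochberg at 0.05) in R 4.3.3. DESeq2 1.42.0 and the other alternatives appear in the closing section. The p-values rest on pool sums, and the pools are not stated to be separate replicates. In the genotype and day tests the residual is only the departure from additive effects of genotype and day. Spread between like pools was not measured, since each genotype and day had 1 pool. The edgeR step was tested on counts simulated with a fixed dispersion for all genes. Of 100 genes changed 4-fold it called 98 for genotype, 100 for day and 74 for the comparison of cycling with other fibroblasts. The dispersion was not taken from the real pools, so this does not show the power of the tests there. Named genes were the selection genes, the 3 highest and 2 lowest of each list by ratio, the 12 highest and 12 lowest outside the lists with at least 20 CPM in every pool of the higher class, and, since none was called, the 5 of smallest p per test. Other named genes were chosen after their values were seen, as were the levels by which cells were split. The members and lists were chosen with earlier results of these data known.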

Additional observations from a re-analysis of the deposited data

Results flagged for a closer look

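The share of fibroblasts in the cycling gate moved in opposite directions between days in the 2 genotypes. From day 3 to day 5 it changed by -2.90 percentage points in WT and by 4.33 points in Ccr2-/-. The difference was not tested, since each genotype and day had 1 pool, and the exact intervals of the 2 days overlapped in both genotypes.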

How the results depend on the processing

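The difference in cycling share, averaged over both days, was 12.2 percentage points and stayed above 0 under the alternatives run. It was 5.54 points (exact permutation p = 0.67) with the limit on all other cell types' markers, where day 3 alone turned, 8.32 points with that on leukocyte markers and 7.97 points among fibroblasts of 100000 to 200000 reads, and ranged over left-out pools from 10.0 to 14.4 points. The difference in the S phase share was 2.23 points and turned to -2.18 with the limit on all other cell types' markers and to -1.26 with that on leukocyte markers. These limits and the range of reads were chosen after the data were seen. Without one pool it ranged from -3.23 to 7.68 points, turning below 0 without WT day 5 (-3.23) and without Ccr2-/- day 3 (-1.74). Genes called between genotypes were 0 in the edgeR test and 41 without the low-count filter, 111 with DESeq2, 107 thinned to 10000 reads and 1 with a gate of 300 CPM, and 0 to 25 over left-out pools (25 without WT day 3 and 8 without WT day 5). Genes called between days were 0, and 24 without the filter, 66 with DESeq2 and 24 thinned, and 0 to 34 over left-out pools (6 without Ccr2-/- day 3 and 34 without Ccr2-/- day 5). For the difference between cycling and other fibroblasts the 0 became 23 with DESeq2 and 2 thinned, and 0 to 6 over left-out pools (6 without WT day 3 and 1 without WT day 5). The cause was not tested. Of the 15 genes named by smallest p, Hdc turned from -3.00 to 0.037 with a gate of 300 CPM, and no other reversed. The smallest pool, WT day 5, had 28 cycling cells. The pools carry no replicate numbers to pair by. Day or genotype was a covariate, except in the genotype and day fits without one pool, which had no covariate. Counts of calls from those fits are therefore not adjusted and not comparable with the main test. The pool was a block in the comparison of cycling with other fibroblasts.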
